A study of Mus musculus with 6 samples.

Results

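C/D box small nucleolar RNAs (snoRNAs) were examined in hearts of mice that lack irisin and in their littermate controls. The members are the rows of the array table whose annotated symbol begins with Snord and a digit, and 65 of the 23185 rows with a gene symbol met this rule. Irisin is a circulating peptide released by cleavage of the product of Fndc5. The samples were 3 irisin knockout and 3 wild type samples of FVB mice, an inbred albino strain, each measured on 1 Affymetrix array. The knockout line was made by injecting zygotes with Cas9 mRNA and 5 guide RNAs, and animals of both genotypes had been fed a standard chow with 10% fat for 24 weeks. The labels give neither the deleted part of Fndc5 nor the sex or age of the animals, and they name the material both as cardiomyocytes and as myocardium. Whether each array had an animal of its own is not stated, so the spread that the p-values measure may be partly or wholly technical.

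C/D box snoRNAs are short RNAs of the nucleolus, named for a box C near the start and a box D near the end. Each assembles with fibrillarin, Nop56, Nop58 and Snu13, pairs with a stretch of ribosomal or spliceosomal RNA, and leads fibrillarin to methylate a ribose there. A few members act instead in cutting or acetylating the ribosomal RNA precursor. Most mammalian members lie in introns of host genes and are released when the spliced intron is opened and trimmed, while a few have promoters of their own.

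The targeted gene had lower values in the knockout samples, to an uneven degree. Fndc5 read 7.68, 5.49 and 5.45 in the knockout samples and 8.42, 8.40 and 7.83 in the wild type samples, as deposited log2 values. The difference was -2.01 (SE 0.54, limma adjusted p = 0.0359), and the two-sided exact permutation test of this row alone gave p = 0.1, the smallest that 3 arrays against 3 allow. Without knockout replicate 2 the limma adjusted p of Fndc5 was 0.133, and in 5 of the 6 fits that leave out an array it did not pass. Heart muscle markers were present: the median over 10 cardiomyocyte genes such as Myh6 and Tnnt2 was 11.02 to 11.12 in the knockout and 10.75 to 11.11 in wild type. Of these 10, 2 rose and 0 fell, where 10.4% of all named rows rose and 6.18% fell. Such small counts are no result about the list. Actn2, a sarcomere crosslinker, rose by 0.76 (limma adjusted p = 0.00939) and Pln, a regulator of the calcium pump, by 0.76 (limma adjusted p = 0.0274). Ttn differed by -0.56, with every knockout value below every wild type value, and did not pass (limma adjusted p = 0.0855). Array medians over all named rows were 2.23 to 2.25 in the knockout and 2.33 to 2.36 in wild type.

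Nearly the whole family was lower in the knockout. Of 65 members, 53 fell, 0 rose and 12 did not pass limma's test at an adjusted p of 0.05. At an unadjusted p under 0.05, 0 members were higher. By the same rule 6.18% of all named rows fell and 10.4% rose, or 16.6% in either direction. The median difference over the 65 members was -1.47 on the log2 scale, a level 2.77-fold lower, against -0.05 over all named rows. In 59 of 65 members every knockout value lay below every wild type value, a separation seen in 17.0% of all named rows, with 17.2% separated the other way. The median over members was 3.99, 4.34 and 4.54 in knockout replicates 1, 2 and 3 and 5.36, 6.01 and 5.63 in wild type replicates 1, 2 and 3, so the groups did not overlap.

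**Figure D1:**
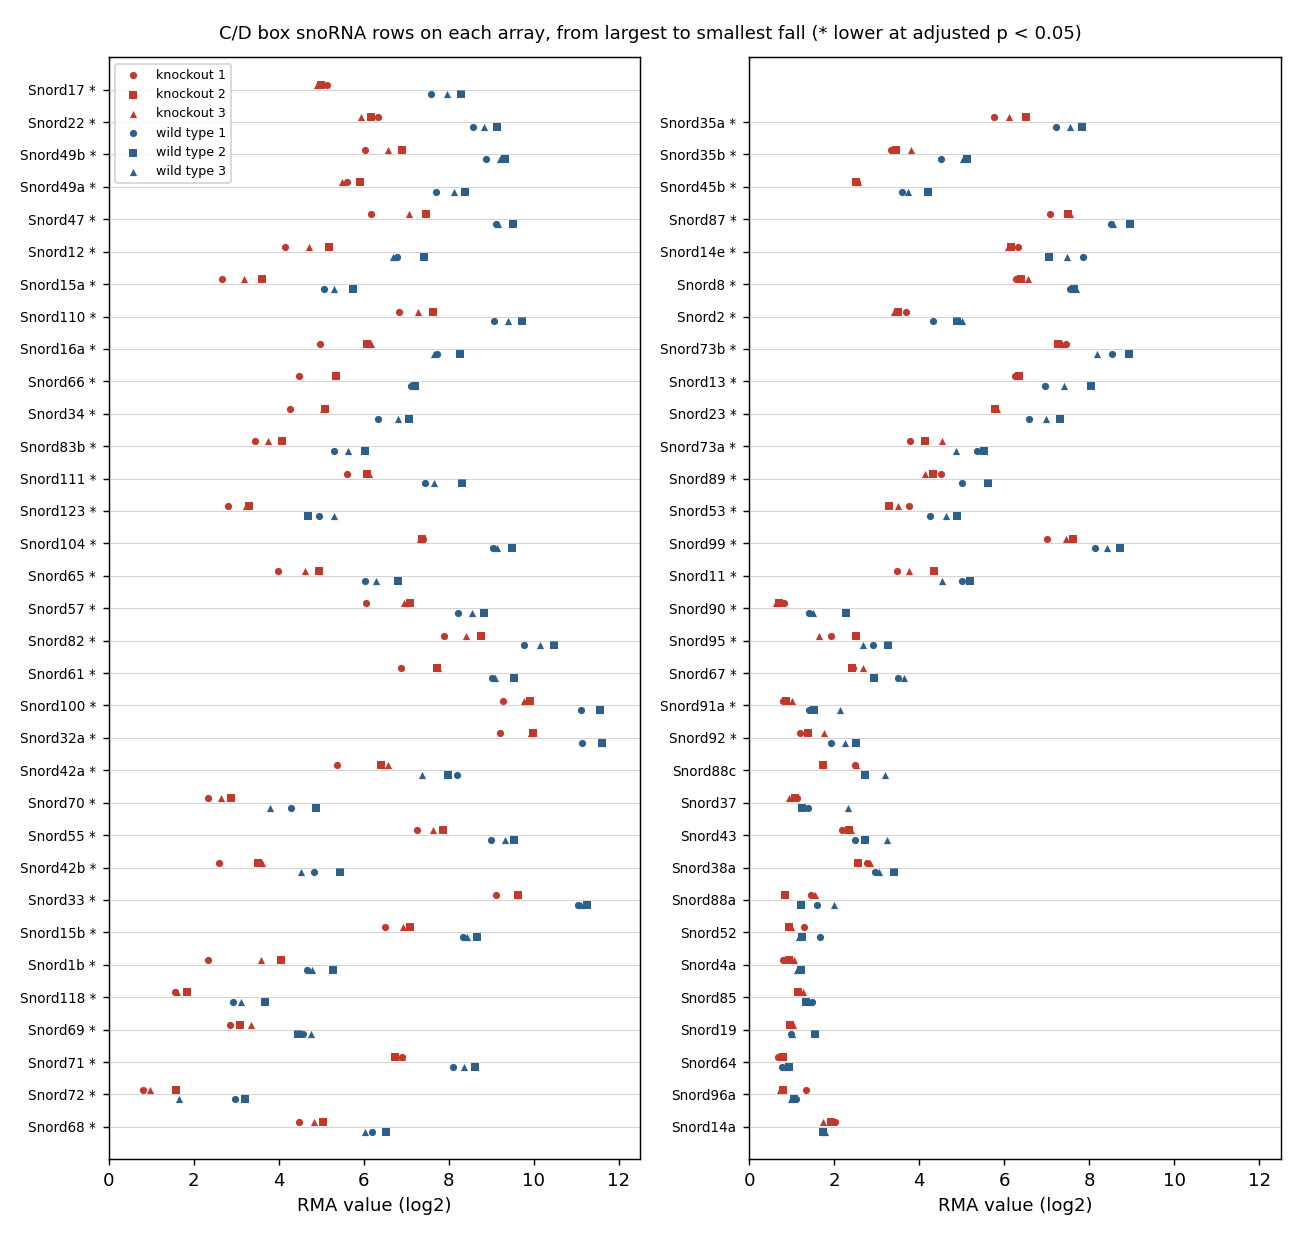
Deposited log2 RMA value (horizontal axis) of each of the 65 C/D box snoRNAs on each array, with knockout arrays in red above wild type arrays in blue and an asterisk for a member lower at an adjusted p under 0.05. Members run from the largest fall, Snord17, to Snord14a, and the 12 members without a call all have wild type means of at most 3.14.

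The largest fall among members was in Snord17, the longest member at 221 nucleotides, which guides methylation of 28S ribosomal RNA in humans. It read 5.14, 4.98 and 4.89 in the knockout and 7.58, 8.27 and 7.95 in wild type. The gap between the groups was wider than the range within either. The difference was -2.93 (SE 0.18, 95% interval -3.34 to -2.52, limma adjusted p = 0.000136), or 7.63-fold lower. Among all named rows it ranked 15 by size of fall, and 20 of the 100 rows with the largest falls were C/D box snoRNAs.

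Snord22, known as U22 and required for 18S ribosomal RNA processing in frog oocytes, came next. Its values were 6.32, 6.17 and 5.93 in the knockout and 8.57, 9.14 and 8.81 in wild type, 6.50-fold lower (difference -2.70, SE 0.17, limma adjusted p = 0.000165). Snord49b and Snord49a, related 28S guides encoded together, were 6.17-fold and 5.28-fold lower. Snord49b read 6.03, 6.90 and 6.57 in the knockout and 8.87, 9.31 and 9.20 in wild type. Snord49a read 5.60, 5.91 and 5.47 in the knockout and 7.70, 8.38 and 8.11 in wild type. For both RNAs the lowest wild type value was more than 1 log2 unit above the highest knockout value.

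Snord47 and Snord12 are 28S guides whose hosts, Gas5 and Zfas1, are long noncoding RNAs. Snord47 read 6.17, 7.46 and 7.06 in the knockout and 9.11, 9.51 and 9.15 in wild type, 5.14-fold lower (SE 0.30 on the log2 scale). Snord12 read 4.14, 5.19 and 4.71 in the knockout and 6.79, 7.41 and 6.69 in wild type, 4.88-fold lower (SE 0.28). In both the first knockout array was the lowest of the 6. Snord15a, a 28S guide in Rps3, was 4.63-fold lower, with values of 2.66, 3.61 and 3.18 in the knockout and 5.06, 5.73 and 5.29 in wild type. The 18S guides Snord110, Snord16a and Snord66 were 4.47-fold, 4.41-fold and 4.35-fold lower. Snord66 read 4.47, 5.35 and 5.31 in the knockout and was nearly even in wild type, at 7.11, 7.19 and 7.19. Snord83b, an intron member of Rpl3 whose target is not assigned here, was 3.70-fold lower. The adjusted p from limma of these 12 members, with Snord34 described next, was at most 0.00319, and each kept its call in every alternative fit that tested it.

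The introns of Rpl13a, a ribosomal protein gene, hold 4 members, and all 4 fell. Work in hamster and mouse cells has linked these RNAs to the response to lipid overload and to oxidative stress. Snord32a, a guide for both 18S and 28S ribosomal RNA, read 9.21, 9.97 and 9.92 in the knockout and 11.12, 11.60 and 11.60 in wild type, 3.34-fold lower (difference -1.74, SE 0.23). Snord33, an 18S guide, read 9.12, 9.62 and 9.62 in the knockout and 11.03, 11.24 and 11.11 in wild type, 3.19-fold lower (difference -1.68, SE 0.16). Snord34, a 28S guide, read 4.27, 5.09 and 5.04 in the knockout and 6.34, 7.07 and 6.79 in wild type, 3.82-fold lower (difference -1.93, SE 0.26). Snord35a, also a 28S guide, read 5.76, 6.51 and 6.12 in the knockout and 7.21, 7.84 and 7.54 in wild type, 2.64-fold lower (difference -1.40, SE 0.22). The intervals of these 4 differences overlapped, and limma's adjusted p lay between 0.000628 and 0.00401.

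Members with roles in cutting or acetylating ribosomal RNA were lower in 4 of 5 rows. Beside Snord22 these were Snord118, Snord13 and Snord14e. Snord118, known as U8 and needed for maturation of 5.8S and 28S ribosomal RNA in frog oocytes, was 2.96-fold lower, between 1.57 and 1.84 in the knockout and between 2.91 and 3.66 in wild type (SE 0.20, limma adjusted p = 0.00165). Snord13, which helps to acetylate 18S ribosomal RNA in human cells, was 2.25-fold lower. It was even in the knockout, at 6.26, 6.36 and 6.30, and spread in wild type, at 6.97, 8.05 and 7.41. Its limma adjusted p was 0.0127, and 0.0520 without knockout replicate 1. Snord118 and Snord13 lie in no protein coding or long noncoding gene of the RefSeq table, so neither has an intron host there. Snord89 is the third member without one, and it was 2.13-fold lower.

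The relatives Snord14e and Snord14a, copies of U14, had unlike values. Snord14e, in the introns of the chaperone gene Hspa8, read 6.32, 6.17 and 6.09 in the knockout and 7.85, 7.05 and 7.47 in wild type, 2.40-fold lower (SE 0.20, limma adjusted p = 0.00388). Snord14a, in Rps13, read 2.01, 1.92 and 1.75 in the knockout and 1.71, 1.75 and 1.79 in wild type. Its difference of 0.14 (95% interval -0.13 to 0.41, limma adjusted p = 0.498) was the only positive one among the 65. Copies of near-identical sequence can share probes, which was not tested here, so the values of Snord14, Snord15, Snord35, Snord42, Snord49, Snord73 and Snord88 copies are uncertain as single RNAs.

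Grouped by the RNA they are known to guide in humans, every target class had members that fell. Of 28 guides for 28S ribosomal RNA 23 fell, with a median difference of -1.45. Of 16 guides for 18S 13 fell, with a median of -1.74. Snord32a and Snord68, which serve both, fell. Snord71, a 5.8S guide, fell by 1.51 on the log2 scale, while Snord96a, another, had a difference of -0.10 at a wild type mean of 1.05. Both guides of the spliceosomal U6 RNA fell: Snord8 was 2.32-fold lower and Snord67 1.79-fold lower. Of 10 members given no target here 8 fell. Differences between target classes were not tested.

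Among guides of high value, Snord100, an 18S guide in Rps12, read 9.27, 9.90 and 9.76 in the knockout and 11.10, 11.55 and 11.53 in wild type, 3.36-fold lower. Snord82, an 18S guide in the nucleolin gene Ncl, read 7.88, 8.75 and 8.40 in the knockout and 9.77, 10.47 and 10.13 in wild type, 3.43-fold lower. Snord104, a 28S guide, was the most even in the knockout of this group, at 7.40, 7.36 and 7.31, against 9.03, 9.48 and 9.13 in wild type (3.62-fold lower, SE 0.14). In these 3 RNAs the groups were separate. Over all 53 members that fell the folds ran from 1.72 to 7.63, with limma adjusted p up to 0.0316.

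The 12 members without a call were at the low end of the scale. Their wild type means were 0.87 to 3.14, against 1.69 to 11.44 in the 53 that fell. The table carries no detection call, and whether these probe sets rise above background is unknown. Of these 12, 11 had a negative difference and 6 had every knockout value below every wild type value, namely Snord88c, Snord37, Snord43, Snord38a, Snord4a and Snord85. The lowest limma adjusted p among them was 0.105, in Snord88c (difference -0.63, 95% interval -1.16 to -0.10), which passed in none of the 16 alternative fits. The highest among members that fell was 0.0316, in Snord72 (difference -1.50). Snord64, the only member within Snhg14, the transcript of the imprinted Prader-Willi region, read 0.69, 0.81 and 0.75 in the knockout and 0.78, 0.94 and 0.89 in wild type. The remaining members without a call were Snord88a, Snord52, Snord19, Snord96a and Snord14a.

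The size of the difference went with level. All 43 members with a mean of at least 4 over the 6 arrays fell, by at least 1.06 on the log2 scale. Of 9 members with a mean from 2 to 4, 6 fell, and of 13 below 2, 4 fell. Among all named rows the share that fell was 11.3% at means from 4 to 7, 11.1% above 7, 8.15% from 2 to 4 and 1.64% below 2. Across the 65 members Spearman's rho between difference and mean level was -0.67, as a description, since the rows share arrays and level enters both measures. Gene length, 45 to 221 nucleotides, had a rho of -0.10 with the difference.

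**Figure D2:**
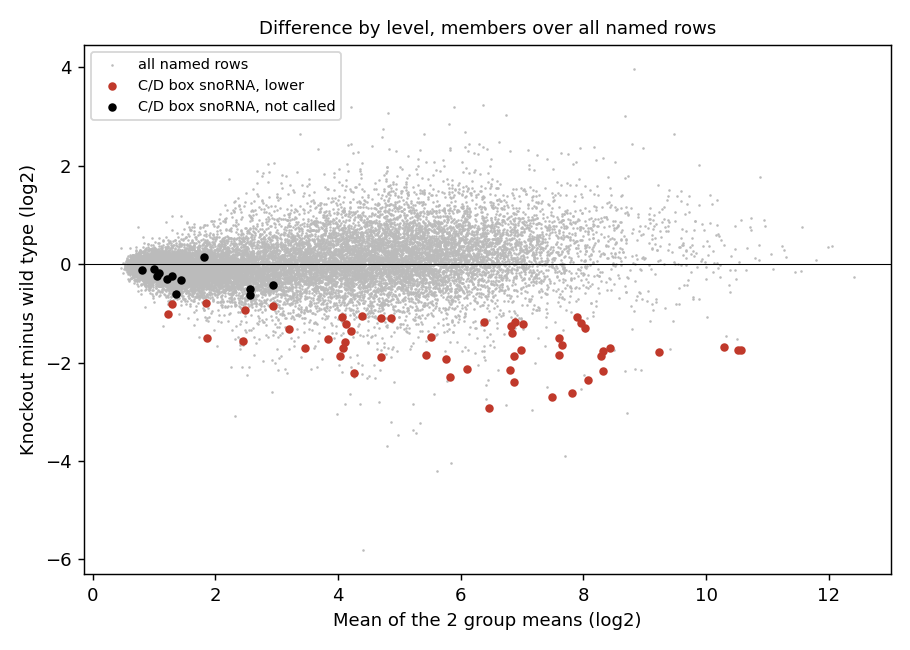
Knockout minus wild type (vertical axis, log2) against the mean of both group means (horizontal axis, log2) for all 23185 named rows in grey, members that fell in red and members without a call in black. Every member with a mean of at least 4 lies at or below -1.06, while the median of all rows is -0.05.

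The arrays of a group were not alike. Knockout replicate 1 was the lowest of the 3 knockout arrays in 42 of 65 members, against 33.6% of all named rows. Wild type replicate 2 was the highest wild type array in 47 of 65 members, against 34.1% of all named rows. Knockout replicate 1 differed from the wild type mean by a median of -1.67 over members, and replicates 2 and 3 by -1.29 and -1.32. That array also had the highest Fndc5 value of the knockout. Without it the median difference over members was -1.32 and 45 members fell. Without wild type replicate 2 the median was -1.34 and 48 members fell.

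Of the 45 hosts, 13 hold more than 1 member, 30 of the 65 in all. By host type, 13 of 15 members in long noncoding hosts fell (median difference -1.85), 17 of 21 in ribosomal protein genes (-1.64) and 20 of 26 in other protein coding genes (-1.12), without a test between types. The rule for hosts took the smallest protein coding or long noncoding gene whose span contains the snoRNA gene in RefSeq's GRCm38.p6 table. That table gives no strand, so the strand of each pair was not checked. Snord49a, Snord49b and Snord65 lie in the noncoding gene 2410006H16Rik and were 5.28-fold, 6.17-fold and 3.61-fold lower. Snord110 and Snord57 lie in Nop56 and were 4.47-fold and 3.57-fold lower. Snord70 and Snord11 in Nop58 were 3.26-fold and 2.08-fold lower. Other hosts held unequal members: in Rpl23a, Snord42a and Snord42b fell by 1.74 and 1.69 on the log2 scale, while Snord4a differed by -0.24 at a wild type mean of 1.18. In Gnl3, Snord69 fell by 1.51 while Snord19 differed by -0.18. The partner that did not pass was the dimmer in both of these hosts.

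Host genes showed a median near 0. Of 45 hosts, 35 had a row of their own, and their median difference was -0.02. In limma 4 hosts fell, 2 rose and 29 did not pass, against the 6.18% and 10.4% of all named rows. The hosts that fell were long noncoding RNAs. Gas5, a growth arrest transcript, read 4.25, 3.98 and 4.31 in the knockout and 4.99, 5.53 and 5.57 in wild type (difference -1.18, SE 0.18, adjusted p = 0.00360). Snhg1 fell by 1.05, Snhg14 by 0.68 and Zfas1 by 0.59. Among the other long noncoding hosts, Snhg12, Snhg16, Snhg18 and Snhg6 differed by -0.53, -0.43, -0.37 and -0.33 without a call. The remaining 2410006H16Rik and 1110038B12Rik differed by 0.05 and 0.08. The hosts that rose were Snx5, a sorting nexin, at 0.49 (adjusted p = 0.0406), and Ckap5, a microtubule polymerase, at 0.81 (adjusted p = 0.00757). With 1 array left out, Snx5 no longer passed in 4 of 6 fits, with adjusted p up to 0.128, and Snhg1 no longer passed without knockout replicate 2 (0.0592) or 3 (0.0517). Zfas1 lost its call without knockout replicate 1 (0.0538) or 3 (0.0578).

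Set side by side, 45 of 47 members with a measured host had the lower difference of the pair. The median of member minus host difference was -1.40, a value that was not tested. Of the 38 members that fell and have a host row, 33 have a host without a call, 3 a host that fell and 2 a host that rose. Some ribosomal protein host rows were dim, with wild type means of 1.16 in Rps3a1, 1.57 in Rpl3, 1.90 in Rpl37 and 2.28 in Rpl23a. Others were brighter, such as Rps3 at 5.35 and Rpl4 at 9.39. Whether the dim rows could show a change of the host is unknown. Snord17 differed by -2.93 and its host Snx5 by 0.49. Snord49b differed by -2.63 and 2410006H16Rik by 0.05, with a host row of 3.85, 3.45 and 3.68 in the knockout and 3.61, 3.52 and 3.68 in wild type. Snord110 differed by -2.16 and Nop56, a protein of the same particle, by 0.23. Snord16a differed by -2.14 and Rpl4 by 0.34, and Snord15a by -2.21 and Rps3 by -0.14. Snord47 and Snord22, whose hosts Gas5 and Snhg1 fell, themselves had differences of -2.36 and -2.70. Unspliced host RNA can carry the snoRNA sequence, and its part in the snoRNA rows cannot be told apart here.

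**Figure D3:**
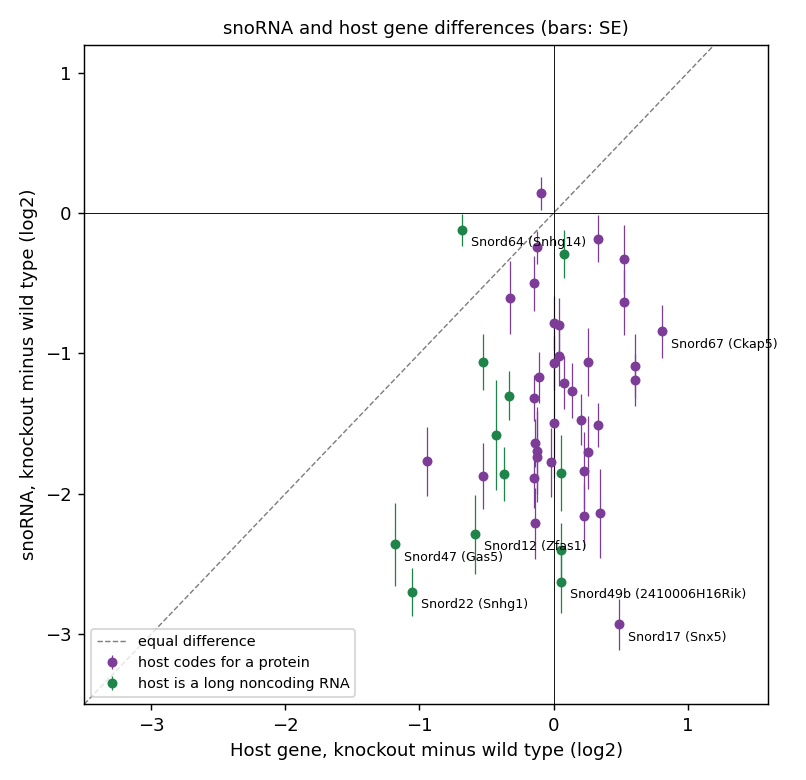
Knockout minus wild type (log2) of each of 47 snoRNAs on the vertical axis, with its SE as a bar, against that of its host gene on the horizontal axis, with protein coding hosts in purple and noncoding hosts in green. All but 2 points lie below the dashed line of equal difference, and hosts cluster around a median of -0.02.

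The start regions of the hosts of the 6 members with the largest falls are shown, since an intron snoRNA is made from its host's transcript. The snoRNA sequences themselves were not analysed here. Each region runs from 80 bases before to 20 bases after an annotated start in RefSeq's GRCm38.p6, the C57BL/6J reference rather than FVB, with the coding direction 5′ to 3′. Capitals mark runs of at least 5 bases that are all C or T and begin within 5 bases of the start, the kind of tract known from genes of the translation machinery and from many snoRNA hosts. The regions are Snx5 at chr2:144270553-144270652 on the minus strand, Snhg1 at chr19:8723407-8723506, 2410006H16Rik at chr11:62602797-62602896, Gas5 at chr1:161034521-161034620 and at a second start at chr1:161035086-161035185, and Zfas1 at chr2:167062854-167062953, the last 5 on the plus strand.
Snx5: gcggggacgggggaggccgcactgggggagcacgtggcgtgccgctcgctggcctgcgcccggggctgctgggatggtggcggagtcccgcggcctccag
Snhg1: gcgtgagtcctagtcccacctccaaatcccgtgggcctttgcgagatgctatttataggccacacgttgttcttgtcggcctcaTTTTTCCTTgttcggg
2410006H16Rik: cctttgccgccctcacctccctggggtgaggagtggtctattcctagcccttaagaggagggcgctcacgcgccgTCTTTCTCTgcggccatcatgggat
Gas5, upstream start: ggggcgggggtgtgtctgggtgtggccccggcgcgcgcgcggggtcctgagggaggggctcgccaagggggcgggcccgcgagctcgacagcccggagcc
Gas5, downstream start: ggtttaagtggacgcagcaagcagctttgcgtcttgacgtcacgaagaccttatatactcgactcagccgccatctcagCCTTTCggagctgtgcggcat
Zfas1: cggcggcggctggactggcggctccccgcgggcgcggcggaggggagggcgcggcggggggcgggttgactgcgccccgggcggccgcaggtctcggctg
Such a run, searched on the coding strand, was present for 13 of the 36 hosts with a start region (36.1%) and for 25.3% of all 27025 genes in the table. Snhg1, Gas5 and 2410006H16Rik had one, Gas5 at its downstream start, while Snx5 and Zfas1 had none in this window. The hosts with a run included Snhg1 and Gas5, which fell, and 2410006H16Rik, which did not pass the test.

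Among genes for proteins that build and carry the particles, Pih1d1, Taf9, Tgs1 and Aqr rose and Ncbp2 fell. The calls of Pih1d1, Aqr and Ncbp2 were lost in some fits that leave out an array. Of 4 core proteins 3 had a row, and 0 fell and 0 rose in limma. Fbl, the methyltransferase fibrillarin, read 2.28, 3.50 and 2.53 in the knockout and 1.98, 1.85 and 2.07 in wild type, a difference of 0.81 that did not pass after adjustment. Nop56 and Nop58 differed by 0.23 and 0.26. At an unadjusted p under 0.05, 1 core protein was higher and 0 were lower. Of 8 measured assembly factors 2 rose and 0 fell, against 10.4% and 6.18% of all named rows: Pih1d1, a subunit of the R2TP complex, by 0.73 (SE 0.17, adjusted p = 0.0212), and Taf9, by 1.13 (SE 0.14, adjusted p = 0.00163). Pih1d1 lost its call without knockout replicate 1 or 2 or wild type replicate 3 (adjusted p up to 0.0848). So few calls among 8 genes are no result about the list.

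Of 13 genes of maturation, decay and transport, 2 rose and 1 fell, counts near the 10.4% and 6.18% of all named rows, so they are no result about the list. Tgs1, which trimethylates the cap of independently transcribed snoRNAs, rose to 5.46, 5.18 and 5.21 in the knockout, against 4.14, 4.04 and 4.22 in wild type (difference 1.15, SE 0.13, limma adjusted p = 0.00104). Aqr, a helicase that couples intron splicing to snoRNA assembly in human cells, rose by 0.42, and Ncbp2, a subunit of the cap-binding complex, fell by 0.48. Without 1 array, Aqr lost its call in 5 of 6 fits and Ncbp2 in 4 of 6, with adjusted p up to 0.119 and 0.122. Dbr1, which opens intron lariats, differed by 0.03, and the exosome nuclease Exosc10 by -0.05. Of 8 genes of RNA polymerase I transcription, Polr1e rose by 0.84 (adjusted p = 0.0452, up to 0.133 without 1 array) and 0 fell. These counts too are near the shares of all named rows and are no result about the list. Rnu3a, a gene for the C/D box RNA U3 that carries another name and so is no member, fell by 1.91, with 1.78, 2.05 and 2.43 in the knockout and 3.88, 4.29 and 3.84 in wild type.

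Rows of the related H/ACA snoRNAs and scaRNAs were mostly lower as well. Of 34 H/ACA snoRNAs, which guide pseudouridylation, 27 fell and 0 rose, with a median difference of -1.48. Of 8 scaRNAs, their Cajal body relatives, 7 fell and 0 rose, with a median of -1.24. At an unadjusted p under 0.05, 0 H/ACA snoRNAs and 0 scaRNAs were higher. The share of C/D members that fell was 81.5%, and that of H/ACA members 79.4%, against 6.18% of all named rows. Of 538 microRNA gene rows 58 fell, or 10.8%, and 5 rose, with a median of -0.12. These rows were dim, with array medians of 1.07 to 1.13 in the knockout and 1.19 to 1.28 in wild type. Of all named rows with means below 2, 1.64% fell. Of 6 other structural short RNAs 3 fell and 0 rose, and 0 were higher at an unadjusted p under 0.05 in limma. Rpph1, the RNA of RNase P, read 7.18, 7.26 and 7.15 in the knockout and 9.96, 10.49 and 10.21 in wild type, 8.14-fold lower, a larger fall than in any C/D box snoRNA. Rmrp, the RNA of RNase MRP, fell by 1.46 on the log2 scale and the Y RNA Rny1 by 0.76. Of 3 small nuclear RNA genes 1 fell, Rnu11 of the minor spliceosome, by 2.54. Rn7sk, with means of 12.28 in the knockout and 12.54 in wild type, differed by -0.26 and did not pass (limma adjusted p = 0.612). Rnu7, Rnu5g, Vaultrc5 and Terc did not pass either, at wild type means of 1.03, 1.05, 1.40 and 1.67. Low values in the knockout were thus measured in some short structural RNAs outside the snoRNA and scaRNA classes. Of those without a call only Rn7sk was bright, and whether the dim rows could show a fall is unknown. Whether the classes differ from each other was not tested.

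**Figure D4:**
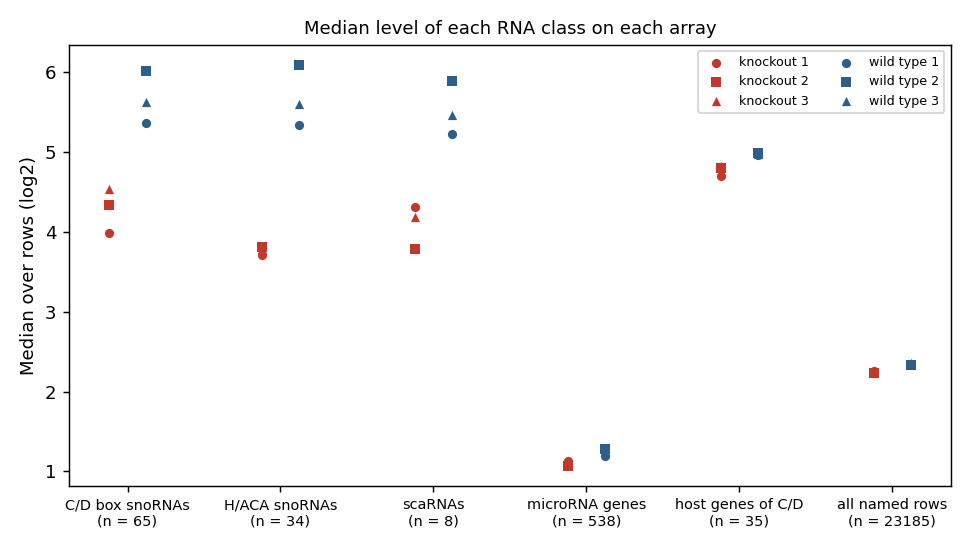
Median log2 RMA value over the rows of each RNA class (vertical axis) on each array, with knockout arrays in red to the left of wild type arrays in blue. The C/D box medians are 3.99 to 4.54 in the knockout and 5.36 to 6.01 in wild type, while the host gene medians are 4.71 to 4.82 in the knockout and 4.96 to 4.99 in wild type.

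Smooth muscle markers and most fibroblast markers were lower in the knockout. Of 8 fibroblast markers 5 fell, where 6.18% of all named rows fell. Dcn, Tcf21 and Lum did not pass, with differences of -0.01, 0.10 and -0.33. The log2 of the summed unlogged values of the 8 fibroblast markers was 10.93 to 11.06 in the knockout and 11.24 to 11.78 in wild type. All 5 smooth muscle markers fell, with summed values of 7.97 to 8.54 in the knockout and 10.11 to 11.45 in wild type. Wild type replicate 2, the lowest wild type array for both lists, was the highest for most snoRNAs. Of 5 endothelial and 5 macrophage markers, 1 each fell and 0 rose. The endothelial Pecam1 differed by -0.52 and the macrophage marker Mrc1 by -0.66. The macrophage markers C1qa, Csf1r and Cd68 differed by -0.52, -0.16 and 0.39 without a call. Adgre1 had means of 2.64 in the knockout and 2.65 in wild type, and whether it rises above background is unknown. The part of these cell types in the snoRNA result was not tested. In samples of many cells, fewer cells of a type and less RNA per cell cannot be told apart. No processing day is given for any array, and a batch aligned with genotype cannot be told apart from genotype.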

How the data were processed

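Total RNA was isolated with TRIzol and biotin-labelled with the WT Plus kit, per the labels. The table the authors deposited holds log2 RMA values, and the submitters' processing notes name RMA, affy 1.61.0 and R 3.6.0. The log2 scale was inferred from the range of the values. The sources used here give no probe set definition, genome build or array batch. With 3 arrays in each group, their number limits the precision.

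Of 25206 rows, 23185 had a single gene symbol in the platform annotation and 2021 had no symbol and stayed out of the test. Knockout minus wild type was tested with limma 3.58.1 in R 4.3.3 (lmFit and eBayes, genotype as the only term, two-sided). The p-values were adjusted by Benjamini-Hochberg over all 23185 rows, with a threshold of 0.05 and no filter on dim rows. The code was tested on simulated data. Figures were drawn with matplotlib 3.10.9.

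Members and lists were chosen with earlier results of these data known. Named are the 12 members with the largest falls past the threshold, members with processing roles, members in Rpl13a, their hosts, and pathway genes past the threshold. Target classes and all other named members and hosts were chosen after their values were seen. Hosts were to be taken by strand, which the gene table lacks, so position alone was used. Snu13, Nopchap1 and 4 U3 genes were not analysed here, and results for some hosts are not reported here. Same-numbered arrays of the groups deviated together with correlations of 0.0896, 0.0478 and 0.0700 over all named rows. Arrays of unlike number had -0.119 to 0.0548. These small values do not settle whether the numbers mark pairs. The main fit took no pairs, and results with the replicate number as a block are given below.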

Additional observations from a re-analysis of the deposited data

How the results depend on the processing

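The median difference over members was negative in all 16 alternative fits (-1.66 to -1.32, the lowest without the dimmest 50% of rows), and members that fell numbered 45 to 53, with 0 that rose. Centring each array on its median put the median of all rows at 0.06, against -0.05 as deposited, and the members' median relative to all rows was -1.43 in both. The share of called rows that were higher was 62.8% as deposited, 75.4% after centring and 55.2% after quantile normalization, where 50 members fell. Of the 53 members that fell, 43 kept the call in every fit that tested them, and all 53 stayed negative. Without knockout replicate 1, 2 or 3 the calls of 8, 5 and 6 members were lost, and without wild type replicate 1, 2 or 3 those of 1, 5 and 3. These were among Snord1b, Snord11, Snord13, Snord67, Snord72, Snord73a, Snord90, Snord91a, Snord92 and Snord95. Without the dimmest 30% or 50% of rows, 9 and 13 members were not tested. At an adjusted p of 0.01, 43 members fell. All-row counts moved by over 1.5 times without single arrays: 740, 701 and 826 rows fell and 1534 and 1403 rose without knockout replicate 1, 2 or 3 (1759 rose without 3), against 1432 and 2416 with all arrays.

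Host counts moved more. Hosts that fell numbered 7 after quantile normalization, 1 and 7 at thresholds of 0.01 and 0.1, and 2 to 6 without 1 array (2 without knockout replicate 1 or 2). Hosts that rose numbered 1 after quantile normalization, 4 after centring, 1 with the replicate block, 1 without both arrays numbered 1, 1 and 4 at those thresholds, and 1 to 3 without 1 array (1 without knockout replicate 2 or 3 or wild type replicate 2). With the replicate block 53 members fell, and Snx5 (adjusted p = 0.0519), Ncbp2 (0.0595) and Aqr (0.0703) lost their calls in limma. Calls were also lost after quantile normalization in Snx5 (0.177), Aqr (0.0786) and Polr1e (0.0618), after centring in Ncbp2 (0.0771), with eBayes trend in Aqr (0.0549), and without both arrays numbered 1 in Snx5 (0.113), Zfas1 (0.0884), Ncbp2 (0.115) and Aqr (0.113). Hosts near 0 changed sign: Hspa8 to -0.16 after quantile normalization, Rps13 to 0.0089 after centring and, without 1 array, from -0.66 to 0.28, Rpl3 from -0.40 to 0.059 without 1 array, and 2410006H16Rik to -0.038 without both arrays numbered 1 and from -0.039 to 0.16 without 1 array. Fndc5 kept its difference of -2.01 but not its call with robust eBayes (adjusted p = 0.0635), and ranged from -2.75 to -1.63 without 1 array. The causes were not tested. Values near the bottom of the scale limit what dim members and dim hosts can show.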
